A study of Mus musculus with 6 samples.

Results

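The 8 genes described here encode the machinery that presents peptides on major histocompatibility complex (MHC) class II molecules: H2-Aa, H2-Ab1, H2-Eb1, Cd74, Ciita, H2-DMa, H2-DMb1 and H2-Oa. They were taken by gene symbol from a deposited table of 22695 rows of RNA counts, and all 8 had a row. The RNA came from the inguinal fat pad, a white subcutaneous depot, of mice aged 20 months on the C57BL/6J background. The groups were 3 wild-type (WT) samples and 3 samples labelled GSNOR KO, which lack S-nitrosoglutathione reductase, the enzyme encoded by Adh5. No agent, diet or sex is given in the labels, and how the knockout was made is not given in the sources used here. Whether the samples are separate animals is not stated in the labels. The p-values therefore speak only of spread among these samples, which may be technical. The study asked which transcripts go with the altered lipid metabolism of old GSNOR KO mice.

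MHC class II molecules carry peptides from ingested or membrane proteins to the cell surface, where CD4+ T cells read them. An alpha and a beta chain assemble on the invariant chain, which blocks the groove until lysosomal proteases cut it away and the DM molecule exchanges the last fragment for a peptide. Expression is highest in B cells, dendritic cells and activated macrophages and depends on the coactivator encoded by Ciita. Fat holds many such cells, adipocytes themselves can express class II, and the inguinal fat pad of the mouse surrounds a lymph node. Whether that node was removed is not given in the sources used here.

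Library totals ran from 20277594 to 23961574 counts, and edgeR tested 13694 genes. Levels are given as CPM, counts scaled to a common library size with TMM factors, fold changes as the log2 ratio of GSNOR KO over WT with their standard error (SE), and a gene was called at an adjusted p under 0.05. Adh5 was at 58.8 to 76.9 CPM in WT and at 3.81 to 5.08 CPM in GSNOR KO. Leaving out any 1 of 4 libraries (WT replicate 2 or each GSNOR KO replicate) left 3 to 13 genes called in the whole table, against 964 with all libraries. Adipocyte markers summed to 9294 to 11010 CPM in WT and 10039 to 11695 CPM in GSNOR KO. Of the 6 genes edgeR called 0 and DESeq2 called 1, beside 2344 of 13666 genes called by DESeq2. An unadjusted edgeR p below 0.05 was seen for 1 of the 6 and for 3912 of all 13694 tested genes. The 5 epithelial markers were too low to be tested and summed to at most 0.503 CPM in a WT library and to at most 3.28 CPM in a GSNOR KO library. GSNOR KO replicate 3 stood apart, with 47 counts of Krt5 and 19 of Krt14, both at 0 in the other 5 libraries.

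In the GSNOR KO libraries 2 of the 7 tested class II members fell. The genes of both chains of the H2-A molecule fell, H2-Aa 2.37-fold and H2-Ab1 2.18-fold. All 7 tested members had a negative log2 fold change, as did 54.5% of all tested genes. The other 5 did not pass the test: H2-Eb1, Cd74 and H2-DMb1 lay between -1.19 and -1.08, H2-DMa at -0.51 and Ciita at -1.28. H2-Oa was too low to be tested. The count of 2 called lower and 0 higher stood beside 3.14% of all tested genes called lower and 3.90% called higher. The median log2 fold change was -1.17 for the 7 tested members and -0.04 for all tested genes. In whole tissue, fewer cells of a type and less RNA per cell cannot be told apart.

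**Figure D1:**
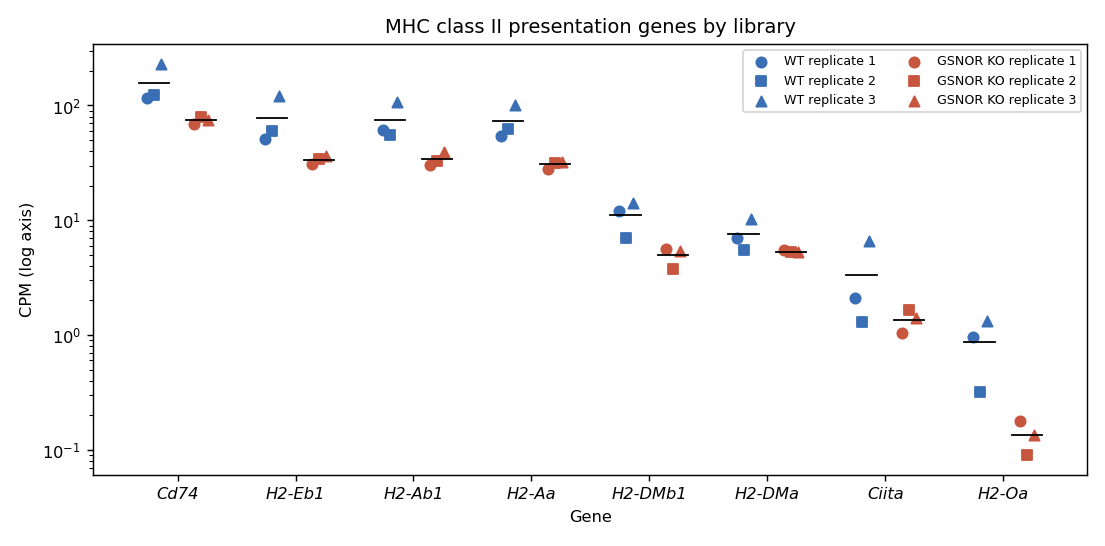
Level of each MHC class II presentation gene in each library, in CPM on a log axis, with genes ordered by mean level. Symbols mark the replicate number, colours the group and black lines the group mean of 3 libraries. WT replicate 3 is the highest library for every gene shown, and the groups overlap for Ciita.

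H2-Aa encodes the alpha chain of the H2-A molecule. It was at 54.7, 62.7 and 101 CPM in WT replicates 1, 2 and 3, and the GSNOR KO libraries, in the same order, at 28.2, 31.5 and 32.4 CPM. The groups did not overlap, and WT replicate 3 stood highest. The log2 fold change was -1.24 (SE 0.228, adjusted p = 0.0300). The gene stayed called without WT replicate 1 or 3 and lost its call without WT replicate 2 or any GSNOR KO replicate, with a highest adjusted p of 0.143 and values between -1.38 and -0.90.

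H2-Ab1 encodes the beta chain that pairs with it. Its level was 61.2, 55.6 and 107 CPM in WT and 30.2, 32.5 and 39.7 CPM in GSNOR KO. The groups were separate and WT replicate 3 stood above the other WT libraries. The log2 fold change was -1.12 (SE 0.258, adjusted p = 0.0467), and the call held in 1 of 6 leave-outs, the one without WT replicate 3, with a highest adjusted p of 0.190.

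H2-Eb1 encodes the beta chain of the H2-E molecule. Mice of the C57BL/6 strain do not make the matching alpha chain, so in them H2-Eb1 is transcribed without forming that molecule. Its level was 51.3, 60.0 and 120.0 CPM in WT and 31.1, 33.9 and 36.5 CPM in GSNOR KO. The groups were separate here too, with WT replicate 3 at 2.16 times the mean of WT replicates 1 and 2. The log2 fold change of -1.19 (SE 0.309) did not pass (adjusted p = 0.0610).

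Cd74 encodes the invariant chain, the chaperone of newly made class II dimers. Its level was 115, 124 and 232 CPM in WT and 68.9, 79.1 and 74.5 CPM in GSNOR KO. No GSNOR KO library reached the lowest WT library. The log2 fold change was -1.08 (SE 0.268, adjusted p = 0.0554), short of the threshold. Relative to H2-Aa in the same library, Cd74 was at 1.98 to 2.301 in WT and at 2.298 to 2.51 in GSNOR KO, so these ratios overlapped between the groups.

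H2-DMa and H2-DMb1 encode the 2 chains of DM, the molecule that removes the last invariant chain fragment from the groove. H2-DMb1 was at 12.1, 7.07 and 14.3 CPM in WT and at 5.67, 3.72 and 5.44 CPM in GSNOR KO, separate between groups (log2 ratio -1.17, SE 0.294, adjusted p = 0.0564). H2-DMa was at 7.04, 5.51 and 10.2 CPM in WT and at 5.49, 5.25 and 5.26 CPM in GSNOR KO, with its lowest WT library just above the highest GSNOR KO library. Its log2 fold change was -0.51 (SE 0.243, adjusted p = 0.217), and with scaling by library totals alone the groups overlapped. The ratio of H2-DMb1 to H2-DMa in CPM was 1.72, 1.28 and 1.40 in WT and 1.03, 0.709 and 1.03 in GSNOR KO. The groups did not overlap in this ratio, for which an exact permutation test with 3 against 3 samples cannot give a p below 0.1. Some reads cannot be assigned between H2-DMb1 and H2-DMb2, a gene not analysed here. Of the 50-base stretches of annotated H2-DMb1 transcripts, 22.7% also occur in H2-DMb2. Of those of H2-DMa, 8.43% occur in Brd2, which overlaps it on the opposite strand. Those are shared only if counting ignored strand, which is not given in the sources used here.

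H2-Oa encodes the alpha chain of DO, which restrains DM and is known mainly from B cells and some dendritic cells. Its counts were 22, 7 and 29 in WT and 4, 2 and 3 in GSNOR KO. The groups did not overlap, but the GSNOR KO counts lie near 3, the count below which a level is not set apart from 0 here. The low-count filter removed the gene, and without the filter its log2 fold change was -2.64 (SE 0.722, adjusted p = 0.0733). Its partner H2-Ob was at 1.84, 1.42 and 7.87 CPM in WT and at 2.07, 1.79 and 1.80 CPM in GSNOR KO. For H2-Ob the groups overlapped, and only WT replicate 3 stood above the GSNOR KO libraries (log2 ratio -0.97, SE 0.637, adjusted p = 0.358).

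Ciita encodes the coactivator that assembles on class II promoters and switches these genes on. Its counts were 48, 28 and 143 in WT and 23, 37 and 31 in GSNOR KO. WT replicate 3 was at 6.54 CPM, 3.86 times the mean of WT replicates 1 and 2, while WT replicate 2 lay within the range of the GSNOR KO libraries. The log2 fold change was -1.28 (SE 0.602, adjusted p = 0.213), and -0.28 without WT replicate 3 (adjusted p = 0.707).

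Levels between genes were compared per transcript length, in the authors' FPKM. In WT, H2-Eb1 was at 109 ± 55.6 and Cd74 at 106 ± 45.3 FPKM (SD, n = 3), not apart beyond their spread. H2-Aa followed at 69.1 ± 22.2 and H2-Ab1 at 58.7 ± 22.7 FPKM, which also overlapped. The DM genes were lower, H2-DMb1 at 7.55 ± 2.66 and H2-DMa at 4.15 ± 1.52 FPKM, and H2-Oa at 0.929 ± 0.539 and Ciita at 0.377 ± 0.320 FPKM were lowest. The order was the same in GSNOR KO, from H2-Eb1 at 48.1 ± 2.74 FPKM to Ciita at 0.150 ± 0.0303 FPKM, with H2-Oa at 0.153 ± 0.0598 FPKM not apart from Ciita. The spread between libraries was wider in WT than in GSNOR KO for each of the 8 genes.

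WT replicate 3 was the highest of the 6 libraries for each of the 8 members. Without it, H2-Aa, H2-Ab1, H2-Eb1 and Cd74 were called lower, 4 of 7 tested members beside 3.37% of all genes tested in that fit. Their fold changes were smaller, from 1.57-fold for Cd74 to 1.86-fold for H2-Aa. H2-DMb1 was at -0.92 (SE 0.305, adjusted p = 0.109) and H2-DMa at -0.20 (SE 0.215, adjusted p = 0.589) on the log2 scale. Across the libraries, 6 of the 7 tested members and the untested H2-Oa did not overlap between the groups and were lower in GSNOR KO, beside 19.5% of all tested genes. With scaling by library totals alone 6 of all 8 members did not overlap, 5 of them tested, beside 20.9% of all tested genes. DESeq2 called 5 of the 7 members lower, beside 8.78% of genes, and edgeR called 3 without WT replicate 1, beside 8.77%. Without WT replicate 2 edgeR called 0 members, beside 0.0359% of genes. In that fit 8 members lay under an unadjusted p of 0.05, beside 3481 of 13910 genes. Without GSNOR KO replicate 1, 2 or 3 edgeR also called 0, beside 0.0286%, 0.0144% and 0.0144% of genes, with 6 members under that unadjusted p each time. Of all genes 3193 of 13999, 2555 of 13914 and 2732 of 13916 lay under it. With all libraries 1 member, H2-Aa, was called with library totals alone (beside 2.96% of genes called lower), without the filter (1.91%), by limma voom (1.94%) and by limma on log2(FPKM + 0.1) (0.540%).

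**Figure D2:**
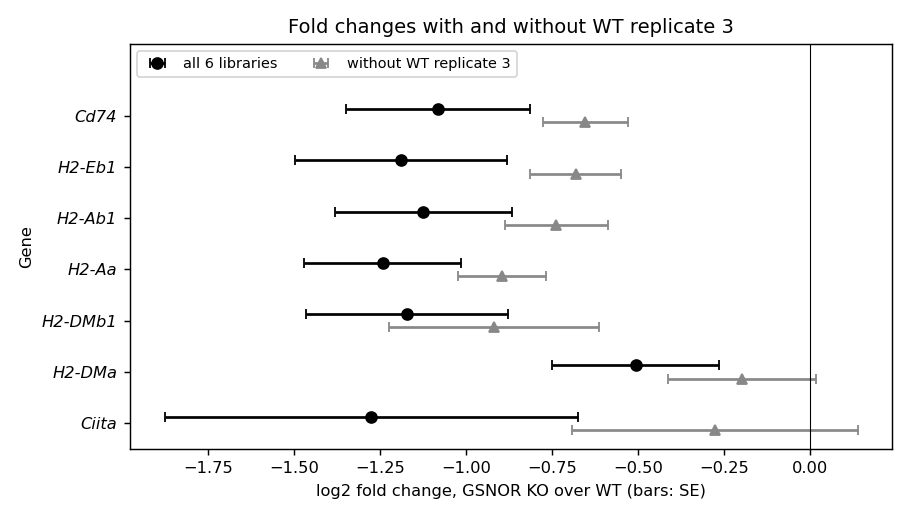
Log2 fold change of GSNOR KO over WT for the 7 tested members, with all 6 libraries (black circles) and without WT replicate 3 (grey triangles). Bars are the SE of each fit. The H2-Aa, H2-Ab1, H2-Eb1 and Cd74 values move from between -1.24 and -1.08 to between -0.90 and -0.65, and Ciita moves from -1.28 to -0.28.

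Promoter sequences are shown because class II genes are known to share an X box, bound by the RFX complex, and a Y box, bound by NF-Y, on which Ciita acts. RefSeq promoter windows on GRCm38.p6 were found for 5 of the 8 members: H2-Aa, H2-Eb1, H2-DMa, H2-DMb1 and H2-Oa. The 250 bases before each RefSeq start were searched for TGATTGG, a Y box core, and for X box forms. The X box forms were GNAAC followed by TGANG with 2 or 3 bases of any kind in between, written down after these promoters had been read. The shares of all windows count both strands, while in the genes named here the X box forms were searched on the gene strand only. Shown 5′ to 3′ on the gene strand is a stretch just upstream of the start of H2-Aa, H2-Eb1 and H2-Oa and of H2-Ob, which is no member, with matches in capitals. H2-Oa has a Y box match alone. The H2-DMb1 stretch lies in an annotated exon and is not printed, nor is that of H2-DMa, which has no match.
H2-Aa (chr17:34287861-34287928, minus strand): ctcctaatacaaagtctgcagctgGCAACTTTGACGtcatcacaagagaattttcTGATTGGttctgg
H2-Eb1 (chr17:34305762-34305829, plus strand): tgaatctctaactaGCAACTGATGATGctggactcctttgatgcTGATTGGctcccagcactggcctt
H2-Ob (chr17:34238800-34238867, plus strand): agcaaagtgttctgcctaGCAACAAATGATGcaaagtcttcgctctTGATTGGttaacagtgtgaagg
H2-Oa (chr17:34092274-34092341, plus strand): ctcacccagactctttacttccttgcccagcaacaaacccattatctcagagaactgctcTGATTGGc

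The Y box core was present in 4 of the 5 members with a window, all but H2-DMa, and in 7.23% of all 32851 windows of the same length. The X box forms were present on the gene strand of H2-Aa, H2-Eb1 and H2-DMb1, and on either strand in 1.49% of all windows. These forms were written down after these promoters had been read, so their presence there was fixed in advance. The share of all windows and the count of windows below do not test it. An X box form lying 10 to 30 bases upstream of the Y box core on the gene strand was found in 6 windows in all, those of H2-Aa, H2-Eb1, H2-DMb1, H2-Ob, BC051142 and 1700048F04Rik. The spacing from the end of the X form to the Y core was 19 bases in H2-Aa, 17 in H2-Eb1, 18 in H2-DMb1 and 15 in H2-Ob. Neither motif was found in the windows of H2-DMa, with the X box forms searched on the gene strand only. This says only that these letters are not there.

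Genes whose products bind the shared promoter were measured next. Among 7 genes of the RFX and NF-Y complexes and Creb1, 1 rose, 0 fell and 6 did not pass. Of all tested genes 3.90% were called higher and 3.14% lower. The median log2 fold change of the 7 genes was 0.09. The gene that rose was Rfxank, a subunit of the RFX complex. It was at 15.8, 17.2 and 15.3 CPM in WT and at 29.2, 34.9 and 32.2 CPM in GSNOR KO (log2 ratio 0.99, SE 0.116, adjusted p = 0.0180), separate between groups and opposite in direction to the members. It stayed between 0.93 and 1.06 in the leave-outs and was called in 2 of 6. Rfx5 was at 0.16 on the log2 scale (adjusted p = 0.582) and Nfyb, an NF-Y subunit, at -0.51 (adjusted p = 0.0992).

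In the list of genes for processing and trafficking, 3 of 9 tested genes fell and 0 rose, beside 3.14% of all genes called lower, with a median log2 fold change of -1.06. By limma 1 was called with voom (beside 1.94% of all genes called lower) and 0 on log2(FPKM + 0.1) (0.540%). In the leave-outs edgeR called 3 without WT replicate 1 (8.77%), 1 without WT replicate 3 (3.37%) and 0 in the other 4. Ctss encodes cathepsin S, the protease that trims the invariant chain in antigen-presenting cells. Its level was 106, 23.3 and 21.5 CPM in WT and 7.60, 4.98 and 5.03 CPM in GSNOR KO, with WT replicate 1 far above all others (log2 ratio -3.10, SE 0.664, adjusted p = 0.0418, and -1.90 without WT replicate 1). Marchf1, a ubiquitin ligase that removes class II from the surface, was at 3.24, 1.38 and 1.78 CPM in WT and at 0.585, 0.314 and 0.629 CPM in GSNOR KO (log2 ratio -2.06, SE 0.470, adjusted p = 0.0453). Cd83, a surface protein that opposes Marchf1, was at 3.02, 3.03 and 3.52 CPM in WT and at 1.53, 1.03 and 1.44 CPM in GSNOR KO (log2 ratio -1.26, SE 0.272, adjusted p = 0.0417). In the leave-outs Ctss was called in 2 of 6 and Marchf1 and Cd83 in 1 of 6 each, and the highest adjusted p were 0.180, 0.181 and 0.161.

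Ctsl, Ctsb and Sppl2a, further lysosomal proteases, lay between -0.14 and -0.04 on the log2 scale. Lgmn, the asparaginyl endopeptidase, was at -1.45 (adjusted p = 0.157) and Ifi30, a thiol reductase of the class II pathway, at -1.06 (adjusted p = 0.117). Both were highest in WT replicate 1. Of 4 tested costimulatory genes edgeR called 0 and DESeq2 called 1, Cd86, beside 8.78% of genes called lower by DESeq2. In edgeR 3 had an unadjusted p below 0.05, beside 3912 of all 13694 genes, and they differed in direction. Cd86 and Icosl (log2 ratio -0.57, adjusted p = 0.0863) were lower in GSNOR KO, and Cd274 (0.28, adjusted p = 0.115) was higher. Cd86 was at 3.24, 1.15 and 3.16 CPM in WT and at 0.944, 0.494 and 0.674 CPM in GSNOR KO (log2 ratio -1.83, adjusted p = 0.0637).

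Upstream of Ciita, Ifng, the interferon gamma gene, had 0 counts in each GSNOR KO library and at most 1 count in a WT library. Among the 6 tested genes of its receptor and signalling chain edgeR called 0. DESeq2 called 1, Ifngr2, beside 8.78% of genes called lower by DESeq2. In edgeR 2 had an unadjusted p below 0.05, beside 3912 of all 13694 genes. Ifngr2, a receptor chain, was at -0.92 (adjusted p = 0.0803) and Irf1 at -0.05 (adjusted p = 0.863) on the log2 scale. Irf1 was highest in WT replicate 3.

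MHC class I presentation, the route that shows peptides of the cell's own proteins to CD8+ T cells, was measured beside it. Of 12 tested genes edgeR and DESeq2 each called 0, and the median log2 fold change was -0.17. Without WT replicate 1 edgeR called 2, beside 2844 of 13850 genes, both counted in either direction. With all libraries 3 had an unadjusted p below 0.05 in edgeR, beside 3912 of all 13694 genes. H2-K1 and H2-D1, the classical heavy chains of this strain, were at 0.09 (adjusted p = 0.769) and -0.03 (adjusted p = 0.926). Both kept their sign with RLE factors and with library totals, H2-K1 was at -0.02 with limma on log2(FPKM + 0.1), and both changed sign in at least 1 leave-out. B2m, the light chain, was at -0.43 (adjusted p = 0.139) and Nlrc5, the class I counterpart of Ciita, at -0.56 (adjusted p = 0.101). The summed CPM of the 8 class II members divided by that of the class I list was 0.110, 0.113 and 0.225 in WT and 0.0818, 0.0677 and 0.0716 in GSNOR KO, so the groups did not overlap in this ratio within a library. An exact permutation test of it cannot give a p below 0.1.

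On chromosome 17 the members H2-Oa, H2-DMa, H2-DMb1, H2-Ab1, H2-Aa and H2-Eb1 lie within 224 kb (GENCODE M21 on GRCm38, 34092340 to 34316674), with class I presentation genes between them. H2-Aa spans 34282744 to 34287823 on the minus strand and H2-Ab1 34257689 to 34269419 on the plus strand. Ciita lies on chromosome 16 (10480059 to 10528418) and Cd74 on chromosome 18 (60803848 to 60812652). Of 12 tested genes in the chromosome 17 interval, 5 were members and 1 was H2-Ob. The other 6, Brd2, Psmb9, Tap1, Psmb8, Tap2 and Gm15821, had log2 fold changes between -0.34 and 0.28. Of these 6, 0 were called, beside 3.14% of all tested genes called lower and 3.90% called higher. The annotation places an antisense gene, Gm20513, over the start of H2-Eb1 and another, BC051537, over H2-Oa, and whether counting used strand is not given in the sources used here.

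**Figure D3:**
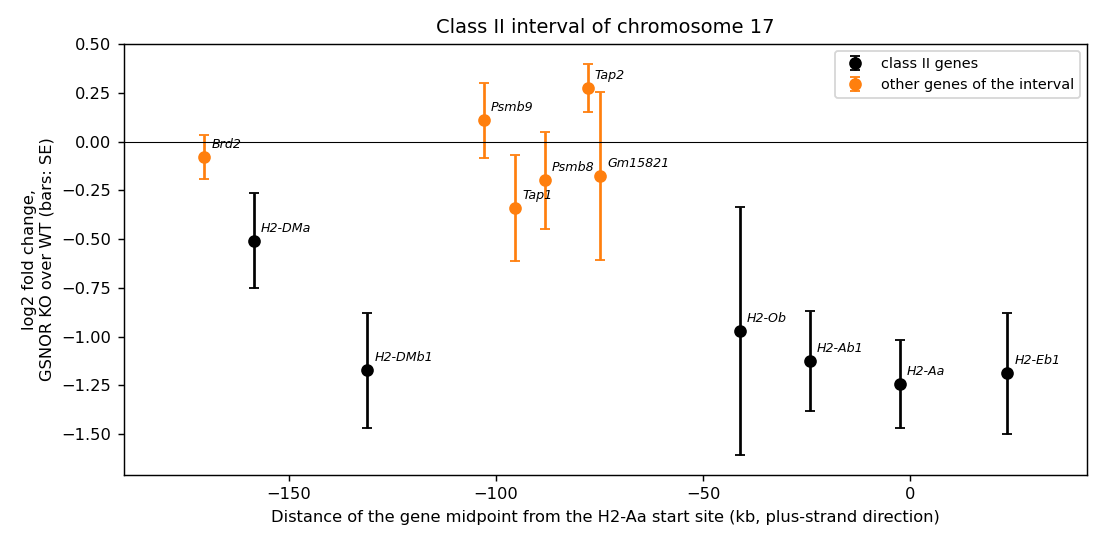
Log2 fold change of GSNOR KO over WT for the 12 tested genes of the class II interval on chromosome 17, against the distance of the gene midpoint from the H2-Aa start site in kilobases. Black points are class II genes, orange points the other genes, and bars the SE. H2-DMb1, H2-Ab1, H2-Aa and H2-Eb1 lie between -1.24 and -1.12, and the orange points between -0.34 and 0.28.

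Some markers of antigen-presenting cells were lower in GSNOR KO as well. Of 10 macrophage genes 5 fell and 0 rose (median log2 fold change -1.22), beside 3.14% of all genes called lower. The count was 1 with limma on log2(FPKM + 0.1) (beside 0.540% of all genes called lower). In the leave-outs edgeR called 6 without WT replicate 1 (8.77%), 3 without WT replicate 3 (3.37%) and 0 in the other 4. C1qc, a complement chain made by tissue macrophages, was at 35.7, 26.3 and 30.9 CPM in WT and at 15.2, 14.9 and 16.0 CPM in GSNOR KO (log2 ratio -1.01, SE 0.136, adjusted p = 0.0181). Mrc1, the mannose receptor gene, was at -1.30 (adjusted p = 0.0319), Csf1r, the receptor macrophages need for survival, at -1.28 (adjusted p = 0.0410), C1qb at -1.16 and C1qa at -0.60, and all 4 fell. The other 5 did not pass. Mertk was at 0.0009 (adjusted p = 0.999) and Cd163 at -0.12 (adjusted p = 0.816). Cd68 was at -1.94 and Adgre1 at -1.65. Fcgr1, at 55.2 CPM in WT replicate 1 and at most 1.71 CPM elsewhere, was at -3.97. The summed level of the 10 genes was 189 to 349 CPM in WT and 102 to 135 CPM in GSNOR KO, and none of the 10 was at 0 in any library. The part of these cells in the class II result was not tested.

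Of 8 tested dendritic cell genes 2 fell and 0 rose (median -0.19), beside 3.14% of all genes called lower and 3.90% called higher. Those that fell were Clec10a, a lectin gene, at -1.52 (adjusted p = 0.0181) and Itgax, the CD11c gene, at -1.46 (adjusted p = 0.0453). Neither is restricted to dendritic cells. The count was 1 with limma voom and with limma on log2(FPKM + 0.1), beside 735 and 248 of all 13694 genes in either direction. Counted in either direction, edgeR called 2 genes without WT replicate 1, beside 2844 of 13850. Without WT replicate 3 it called 3, beside 915 of 13896. Clec10a and Itgax, both with negative log2 fold changes, were among the genes called each time. In the other 4 leave-outs edgeR called 0. The other 6 did not pass, and Clec9a was at -0.03, Irf4 at 0.95 (adjusted p = 0.135) and Zbtb46 at 0.44 (adjusted p = 0.447). The summed level of the 10 genes with a row was 48.2 to 77.6 CPM in WT and 63.5 to 67.4 CPM in GSNOR KO. Flt3 and Xcr1 were too low to be tested, and Flt3 was at 0 in GSNOR KO replicate 2 and Xcr1 in GSNOR KO replicate 3.

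B and T cell markers were high in the library in which the class II genes were highest. All 6 tested B cell genes and all 8 tested T cell genes had their highest level in WT replicate 3. The 7 B cell genes with a row summed to 10.7, 7.44 and 44.2 CPM in WT and to 6.43, 5.34 and 7.96 CPM in GSNOR KO, and the 9 T cell genes to 8.49, 6.62 and 27.7 CPM in WT and to 4.86, 4.31 and 6.56 CPM in GSNOR KO. The median log2 fold change was -1.31 for the B cell list and -1.46 for the T cell list. The groups overlapped in the B cell sum and were just apart in the T cell sum. In these lists edgeR called 0 genes. DESeq2 called 2 B cell genes and 1 T cell gene, beside 8.78% of genes called lower by DESeq2. In edgeR 2 B cell and 4 T cell genes had an unadjusted p below 0.05, beside 3912 of all 13694 genes. Cd79a, part of the B cell receptor, was at 14.8 CPM in WT replicate 3 and between 1.35 and 3.15 CPM in the other 5 libraries, and Cd4, too low to be tested, at 3.98 CPM there and at most 0.875 CPM elsewhere. Of 8 lymph node stroma genes, Chst4 was at 0 in each library, and Glycam1, a gene of lymph node high endothelium, had at most 1 count in any library. Other genes of the list were detected: the chemokine gene Ccl21a had 184, 42 and 157 counts in WT and 76, 70 and 32 in GSNOR KO, Cxcl13 had 37 to 95 counts in all libraries, and Ccl19 had 9, 6 and 20 in WT and 3, 1 and 3 in GSNOR KO. Of the list's 3 tested genes edgeR called 0, DESeq2 called 1, and 1 had an unadjusted p below 0.05, beside the shares of all genes given above. The list summed to 12.9, 5.19 and 12.8 CPM in WT and to 8.18, 4.98 and 5.44 CPM in GSNOR KO. The part of lymphocytes in the class II level of WT replicate 3 was not tested.

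WT replicate 1 stood apart in another way. The 6 tested pan-leukocyte genes and 8 of the 10 macrophage genes were highest there, as were 7 of the 9 processing genes, while 0 of the 7 tested class II members were. Ptprc, the common leukocyte antigen CD45, was at 23.4, 7.49 and 13.7 CPM in WT and at 6.48, 3.41 and 4.85 CPM in GSNOR KO (log2 ratio -1.60, SE 0.426, adjusted p = 0.0641). The pan-leukocyte list summed to 305, 73.9 and 126 CPM in WT and to 63.5, 40.4 and 54.9 CPM in GSNOR KO, with a median log2 fold change of -1.78. Of its genes edgeR called 0 and DESeq2 all 6, beside 8.78% of genes called lower by DESeq2. In edgeR 6 lay below an unadjusted p of 0.05, beside 3912 of all 13694 genes. Of 7 tested skeletal muscle markers 4 fell and 0 rose (median log2 fold change -1.44), beside 3.14% of all genes called lower and 3.90% called higher. The count was 2 without the filter (beside 1.91% called lower) and 1 with limma on log2(FPKM + 0.1) (0.540%). In the leave-outs edgeR called 4 without WT replicate 1 (8.77%), 2 without WT replicate 3 (3.37%) and 0 in the other 4. All 7 were highest in WT replicate 1, and the list summed to 9504 to 23231 CPM in WT and 3859 to 6221 CPM in GSNOR KO. The part of leukocyte and muscle content in the class II result was not tested.

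**Figure D4:**
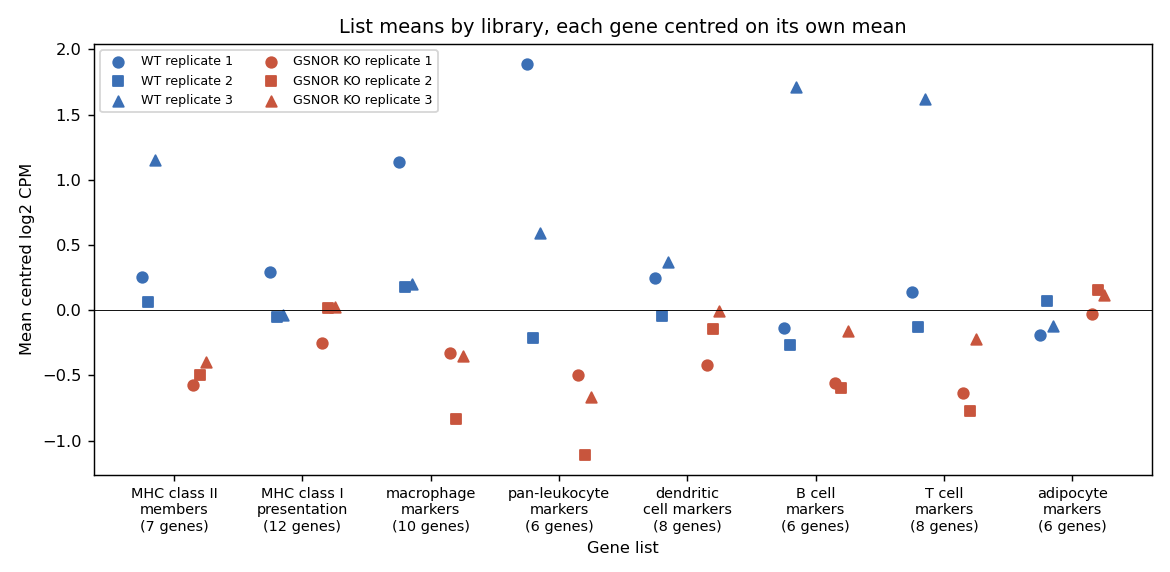
Mean log2 CPM of the tested genes of 8 lists in each library, with each gene centred on its own mean over the 6 libraries. Colours mark the group and symbols the replicate number. The class II mean is 0.26, 0.06 and 1.15 in WT replicates 1 to 3 and between -0.57 and -0.40 in GSNOR KO, the B and T cell means are also highest in WT replicate 3, and the macrophage and pan-leukocyte means are highest in WT replicate 1.

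Set against marker levels of the same library, the groups separated for some lists and not for others. The summed CPM of the members divided by that of the macrophage list was 0.873, 1.68 and 2.84 in WT and 1.26, 1.83 and 1.54 in GSNOR KO, so every GSNOR KO library lay within the WT range. Divided by the pan-leukocyte list it was 0.999, 4.29 and 4.70 in WT and 2.69, 4.65 and 3.56 in GSNOR KO, again within the WT range. For the B cell list the ratio was 28.4, 42.6 and 13.4 in WT and 26.6, 35.2 and 24.5 in GSNOR KO, with the lowest value in WT replicate 3. Divided by the dendritic cell list it was 5.14 to 7.63 in WT and 2.69 to 2.97 in GSNOR KO, with no overlap. Zbtb46, a transcription factor gene at 15.3, 36.3 and 45.3 CPM in WT and at 40.7, 46.8 and 43.7 CPM in GSNOR KO, held most of that list's sum in 5 of the 6 libraries. Without it, a choice made after seeing the data, the ratio was 9.26, 12.5 and 18.3 in WT and 7.47, 9.16 and 8.81 in GSNOR KO, so the groups were barely apart. No test was made on these ratios.

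The members also differed in how closely they followed each other. Likeness was measured as the root mean square distance, over the 6 libraries, between a gene's centred log2 CPM and the mean of the 7 tested members. H2-Ab1 (0.0949), Cd74 (0.105) and H2-Eb1 (0.140) lay nearer to that mean than any of 12707 other genes with at least 1 CPM on average, and H2-Aa was at 0.172. Each member contributes to the mean it is compared with. H2-DMa (0.290), H2-DMb1 (0.293) and Ciita (0.369) lay farther off. The nearest other genes were Slc2a3, a glucose transporter gene, at 0.143 and Blnk, which encodes an adaptor of B cell receptor signalling, at 0.158. Lrrc1, Hmha1, B3gnt5, Ccl5, Lrrc16a and Cep85 followed at 0.159 to 0.201, beside a median of 0.641 for all genes compared. Slc2a3 was at 4.77, 4.46 and 7.59 CPM in WT and at 3.06, 2.74 and 2.74 CPM in GSNOR KO.

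In the authors' deposited table, the log2 fold changes of the 7 members that have one lay between -1.26 and -0.49. The adjusted p in the authors' deposited table was lowest for H2-Aa (0.0724) and highest for Ciita (0.684). No member was therefore under 0.05 there, while DESeq2 here called 5. Of the other genes named above as falling, C1qc, Mrc1 and Clec10a were under 0.05 there. Ctss, Marchf1, Cd83, Csf1r, C1qa, C1qb and Itgax lay between 0.0636 and 0.404. The cause of the difference was not tested.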

How the data were processed

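The authors deposited 1 table with whole-number counts and FPKM values for each of the 6 libraries, and their own DESeq comparison, per the file headers. Per the labels' protocols, RNA from frozen fat was poly-T selected, reverse-transcribed with random primers and made into Illumina libraries. Per the submitters' processing notes the build was GRCm38 (mm10). Which aligner and counter were used, and whether by strand, the sources used here do not give. The FPKM values, which the authors scaled for length and depth per the file headers, served for levels between genes and 1 alternative.

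Counts were filtered with filterByExpr (minimum count 10), scaled with TMM and tested in edgeR 4.0.16 (R 4.3.3) by quasi-likelihood with robust dispersion, GSNOR KO against WT, without covariates. Benjamini-Hochberg adjustment ran over all 13694 genes, with calls under 0.05. The SE is the log2 fold change over the square root of F. Centred profiles used log2 CPM with a prior count of 3. The fit was tested on simulated data.

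The members and the 16 gene lists were chosen with earlier results of these data known. Of 130 list genes 115 matched by symbol, 4 by identifier and 11 were not analysed here. The row of Marchf1 carries a date in place of a symbol and was matched by identifier. Named were all members, up to 4 genes with the smallest p per list, called genes of the pathway lists, marker genes described as detected or at 0, Adh5, and the 8 genes nearest in profile. A single-gene result that this rule would name is not reported here. Csf1r, Mertk, Cd163, Cd68, Adgre1, Fcgr1, Cd4, Clec9a, Irf1, H2-K1, H2-D1, Zbtb46, Krt5, Krt14, Ccl19, Lgmn, Ctsl, Ctsb, Sppl2a and the other genes of the chromosome 17 interval were named after their values were seen. Alternatives were RLE factors, library totals, no filter, a floor of 1 CPM in 3 libraries, limma 3.58.1 with voom or on log2(FPKM + 0.1), DESeq2 1.42.0, dispersion without the robust option, a replicate block, and each library left out. A floor of 3 counts, 0.131 to 0.138 CPM, was set as the limit below which a level was not set apart from 0.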

Additional observations from a re-analysis of the deposited data

How the results depend on the processing

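All 15 alternatives gave a negative log2 fold change for each of the 7 tested members. The number of members called lower, 2 with all libraries, was 1 with library totals only (beside 2.96% of genes called lower), with no filter (1.91%), with limma voom (1.94%) and with limma on log2(FPKM + 0.1) (0.540%). It was 5 with DESeq2 (beside 8.78% of all genes with an adjusted p in DESeq2 called lower). It ran from 0 to 4 in the leave-outs, with 3 without WT replicate 1 (beside 8.77% of genes) and 4 without WT replicate 3 (3.37%). It was 0 without WT replicate 2 or any GSNOR KO replicate. There 8, 6, 6 and 6 members lay at an unadjusted p under 0.05, beside 3481, 3193, 2555 and 2732 of all genes tested. H2-Aa was called in each of the 9 alternatives that keep all libraries. Over all genes 964 were called, 2344 with DESeq2, 248 with limma on log2(FPKM + 0.1), and 3 to 2844 in the leave-outs. The cause was not tested. The split of calls was 534 higher and 430 lower with TMM and 314 higher and 406 lower with library totals only. Without WT replicate 3 the folds of Ciita and H2-DMa were 1.21 and 1.15, against 2.42 and 1.42 with all libraries.

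With the replicate block 5 members were called (beside 3.71% of all tested genes called lower) and 884 genes in all. The numbers share no stated animal or day, and the correlations across genes of deviations from the group means were 0.16, 0.14 and -0.06 for numbers 1 to 3, and not every sample correlated best with its own number, so the block was not taken as a pairing. Depth limits H2-Oa, with at most 4 counts in a GSNOR KO library. Divided by the dendritic cell list, the members' mean ratio in WT was 2.26 times that in GSNOR KO, and 1.58 times without Zbtb46, an alternative chosen after seeing the data.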

Other observations

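Rows of the MHC class I family outside the class II interval were looked at after their values were seen. Of 12 tested class I and class I-like rows, 1 rose and 0 fell, beside 3.90% of all tested genes called higher and 3.14% called lower. Their median log2 fold change was -0.03. The one that rose was H2-Q10, which encodes a class I molecule known to be secreted by the mouse liver. Its level was 83.3, 61.3 and 47.6 CPM in WT and 135, 108 and 121 CPM in GSNOR KO, with no overlap between the groups (log2 fold change 0.92, SE 0.208, adjusted p = 0.0448). It lay between 0.79 and 1.19 in the leave-outs and was called in 1 of 6, the one without WT replicate 1. The class I genes are close in sequence, and how reads shared between them were counted is not given in the sources used here.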
